A study of Homo sapiens with 4 samples.

Results

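Replication-dependent and linker histone genes were examined in RNA-seq gene counts from 4 libraries of HAP1 cells, a human line derived from a chronic myeloid leukaemia that is nearly haploid. The members were the protein-coding genes whose GENCODE release 44 symbols begin with H2AC, H2BC, H3C, H4C or H1- followed by a number. The annotation held 69 such genes once 16 pseudogenes and 1 antisense gene had been set aside, and 38 of the 69 were found by Ensembl identifier among the 57820 genes counted. The 38 comprised 10 of 10 H1 genes, 8 of 16 H2A genes, 11 of 17 H2B genes, 5 of 13 H3 genes and 4 of 13 H4 genes. The other 31 genes carry an identifier that was not matched and were not analysed here.

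The 2 dKO libraries came from untreated cells with RING1A and RING1B inactivated, and the 2 tKO libraries from untreated cells in which BAP1 was inactivated too. By genotype, all 4 libraries are knocked out for the PRC1 enzymes that place ubiquitin on a lysine of histone H2A, the mark that BAP1 removes, and the comparison asks whether loss of BAP1 alters transcription without that mark. The methods of the study describe independent biological replicates and knockout clones obtained by inserting a STOP cassette into BAP1 and RING1A, and do not state whether the tKO libraries share a clone. No library of unedited cells was analysed here. Per the labels, the libraries were made with a kit that selects polyadenylated RNA.

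Histones H2A, H2B, H3 and H4 form the nucleosome core, and linker histones of the H1 family bind the DNA where it enters and leaves the core. Cells make most of this protein in S phase from replication-dependent genes, which lie in clusters, lack introns in their usual form and give mRNAs that end in a conserved stem-loop in place of a poly(A) tail. The stem-loop is bound by SLBP, and the pre-mRNA is cut just after it. Poly(A) selection is meant to remove the usual form of these mRNAs, so the values below do not describe the total output of the genes. Whether the counted reads came from polyadenylated forms alone was not tested. A few members depart from the rule: H1-10 is a linker histone gene outside the clusters whose mRNA is polyadenylated, and H1-7 and H1-8 are expressed in germ cells.

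The stem-loop was looked for in the 100 bases after the stop codon of each gene on GRCh37. It was defined as 16 bases that begin with GG, end with CC, have T at the seventh base and can form 6 pairs, with G-T pairs allowed. It was present in 33 of the 38 members, 22 to 57 bases after the stop codon (median 36.0), and in 55 of 19694 other protein-coding genes (0.279%). Members without it included H1-10, the most abundant member. The 33 copies used 5 different sequences, and 1 member with each is printed here, together with H2AC6, which shares the form of H1-2. H1-2 and H2AC6 are the members whose log2 fold change exceeded 1 when tKO 2 was left out. All lines read 5′ to 3′ on the strand of the gene, and capitals mark the stem-loop with 5 bases on each side.
H1-2: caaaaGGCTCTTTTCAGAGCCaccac
H2AC6: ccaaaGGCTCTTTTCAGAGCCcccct
H2BC12: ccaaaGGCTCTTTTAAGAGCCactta
H4C8: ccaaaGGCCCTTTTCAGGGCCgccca
H2AC11: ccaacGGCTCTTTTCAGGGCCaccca
H2AC20: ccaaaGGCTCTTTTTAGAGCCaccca

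The form in H1-2 and H2AC6 was the most frequent and occurred in 20 members. The form in H2BC12 occurred in 7 members, and the form in H4C8 in 4, which were the 4 H4 genes. Those in H2AC11 and H2AC20 each occurred in that gene alone. The poly(A) signal AATAAA, searched on the strand of the gene, lay within 500 bases after the stop codon in 8 of 38 members and in 41% of other protein-coding genes. Among the tested members it lay 55 bases after the stop in H1-2, 64 in H2BC5 and 468 in H1-10. A match is a description of the letters and was not tested as a site of processing.

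Libraries held between 16054590 and 18455410 counts in genes, and 3 counts, the lowest level read as present in a library, corresponded to 0.163 to 0.187 CPM, the unit of counts scaled to library size used throughout. BAP1 had 112 and 111 CPM in dKO and 9.73 and 6.62 CPM in tKO, with a log2 fold change of -3.77. The RNA of RING1 (12 to 17 counts) and RNF2 (68.1 to 86.0 CPM) was present in all libraries and differed by -0.02 and -0.17 in log2 fold change, so gene-level counts did not check these knockouts. None of 7 blood markers passed the filter on low counts (highest count 5), and of 7 fibroblast markers COL1A1 and THY1 did, with COL1A2, COL3A1 and PDGFRB at 0 in every library. THY1 had 76.6 and 62.5 CPM in dKO and 52.1 and 40.2 CPM in tKO, with a log2 fold change of -0.60 (limma unadjusted p = 0.00989, limma adjusted p = 0.996), and COL1A1 had a log2 fold change of 0.03. The tKO libraries stood apart from each other along chromosomes. In windows of 10 Mb, genes in the first 40 Mb of chromosome 10 had a median log2 difference from dKO of -0.96 or lower in tKO 1, and genes in the first 60 Mb of chromosome 3 one of -0.87 to -1.03 in tKO 2 (with -0.73 in 1 window of chromosome 19), while the windows that held the tested histone genes lay between -0.05 and 0.09. No member lies in a reduced window.

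The 38 genes together took between 0.0161% and 0.0180% of the gene counts of a library. A gene was tested if its CPM exceeded 0.5 in 2 or more libraries. This filter kept 14 members, namely 3 of the H1, 3 of the H2A, 6 of the H2B, none of the H3 and 2 of the H4 genes. Of the 24 others, 13 had 0 counts in every library and 11 had at least 1, with no count above 7. The cluster genes H1-1 and H1-5 were among the 13, which allows each a level of up to 0.163 CPM in dKO 1 and 0.187 CPM in tKO 2. Such limits, and the interval given for the H3 genes, take account of counting error and not of PCR duplication.

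H1-10 (ENSG00000184897.4, chromosome 3, 129033614 to 129035129, minus strand), the only tested member without a stem-loop, had 133 and 145 CPM in dKO and 131 and 120 CPM in tKO. It took 80.2%, 81.2%, 74.4% and 74.8% of the member counts in dKO 1, dKO 2, tKO 1 and tKO 2, and both tKO values lay below both dKO values. The estimated log2 fold change was -0.15 (standard error, SE, 0.10, limma adjusted p = 0.996). An antisense gene, H1-10-AS1, overlaps it on the other strand. The counts were split by strand, and the wrong-strand column held 37 to 57 reads for H1-10 against 1940 to 2634 in the column used.

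**Figure D1:**
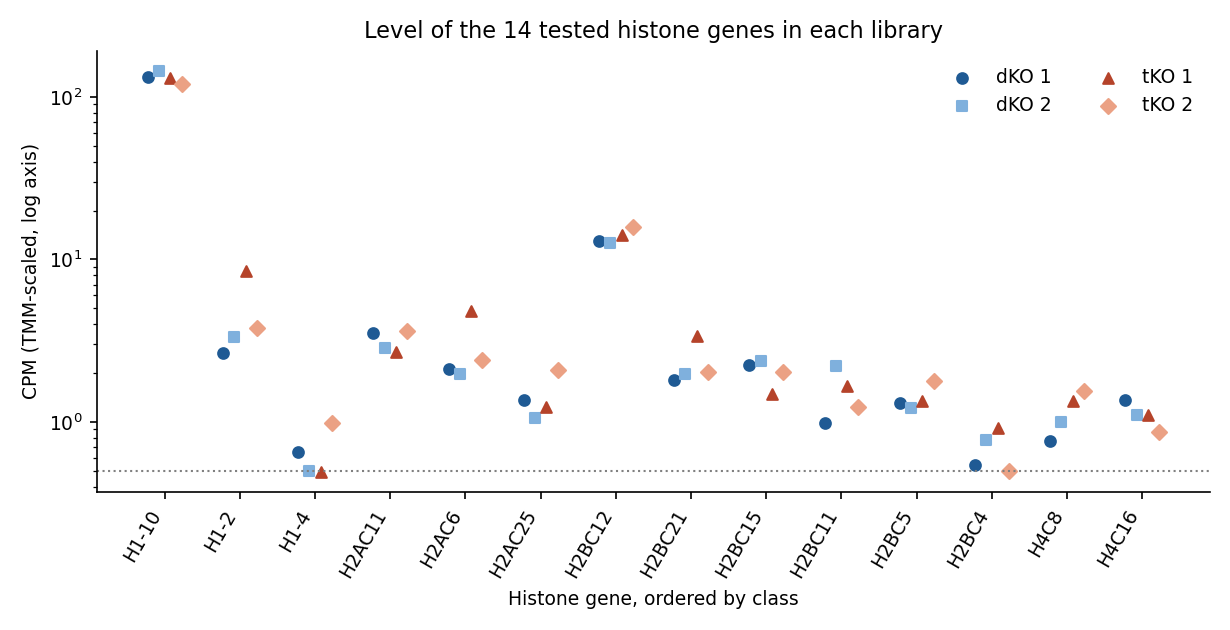
CPM (log axis) of the 14 tested histone genes in the 4 libraries, 1 point a library, ordered by class and level, with the filter of 0.5 CPM as a dotted line. H1-10 lies between 120 and 145 CPM and H2BC12 between 12.6 and 15.8 CPM, the other 12 genes lie below 10 CPM, and tKO 1 stands above the other 3 libraries for H1-2, H2AC6 and H2BC21.

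Levels of different genes were compared per kilobase of exon in the release 44 gene models, as means of the 4 libraries. H1-10 stood at 87.1 CPM per kb and H2BC12 at 28.1, followed by H2AC11 at 6.47 and H1-2 at 6.24. The other 10 tested genes lay between 0.237 (H2BC4) and 1.70 CPM per kb (H2AC6). The neighbours H2AC11 and H1-2 cannot be ordered, because H1-2 ranged from 2.67 to 8.49 CPM over the libraries.

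None of the 14 tested members passed the threshold of an adjusted p below 0.05 with a log2 fold change beyond 1 in either direction, against 0.0132% of all 15136 genes tested. No member had an unadjusted limma p below 0.05 (3.55% of all genes) and none a log2 fold change beyond 1 (1.78% of all genes). The edgeR quasi-likelihood test and DESeq2 also called 0 members, and each gave an unadjusted p below 0.05 for H1-2 alone, of 0.0426 and 0.0408. With no filter, limma gave unadjusted p-values of 0.00666 for H3C13 and 0.0316 for H2AC20 (2, 1, 7 and 4 counts in dKO 1, dKO 2, tKO 1 and tKO 2), with log2 fold changes of 1.21 and 1.18 and a limma adjusted p of 0.734 for each. The member estimates ran from -0.38 to 0.91 with a median of 0.24, beside a median of -0.00137 over all genes, and 9 of 14 were above 0, against 49.7% of all genes. Both tKO libraries lay above both dKO libraries in 6 members, against 15.8% of all genes, and below them in 2, against 15.9%. The adjusted p-values were 0.996 to 0.998, so these directions are counts of estimates that did not pass the test. With 2 libraries a group the 95% intervals were wide, and those of 9 members reached above 1 on the log2 scale.

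**Figure D2:**
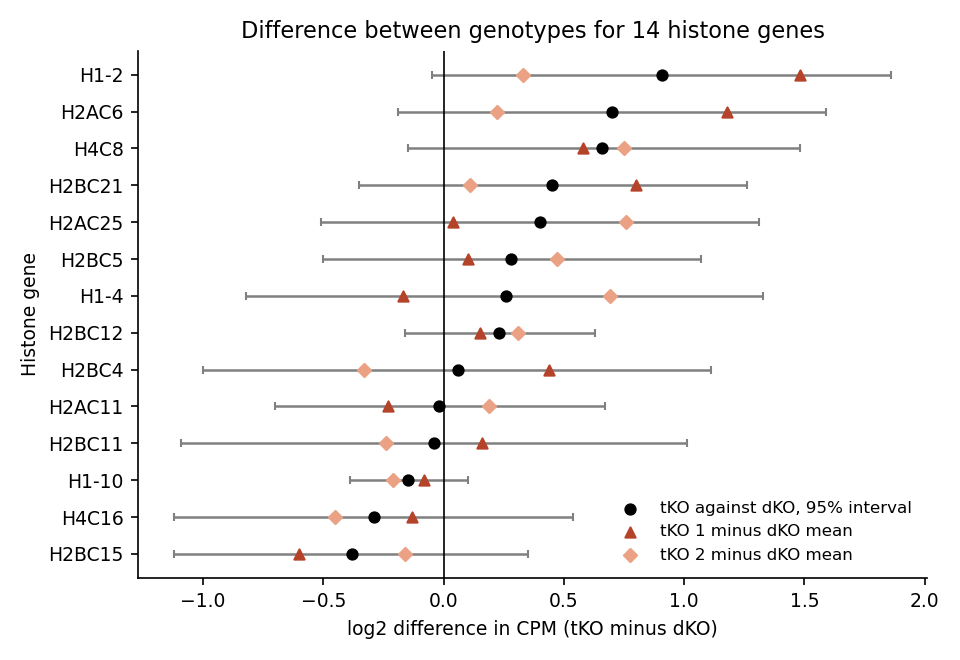
Log2 difference in CPM, tKO minus dKO, for the 14 tested histone genes, with the 95% interval of the limma fit (black) and each tKO library minus the dKO mean (coloured). All 14 intervals cross 0, and tKO 1 and tKO 2 lie far apart for H1-2, at 1.48 and 0.33, and for H2AC6, at 1.18 and 0.22.

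Of the linker histone genes, H1-2 (ENSG00000187837.2, chromosome 6, 26055968 to 26056698, minus strand), a cluster gene that is among the widely expressed H1 subtypes, had the largest estimate. It had 49 and 60 counts in dKO and 138 and 61 in tKO, or 2.67 and 3.31 CPM against 8.49 and 3.77 CPM. The value in tKO 1 stood apart, and tKO 2 lay just above dKO 2. The log2 fold change was 0.91 (SE 0.40, 95% interval -0.05 to 1.86, limma unadjusted p = 0.0596, limma adjusted p = 0.996). H1-4, another cluster subtype, was close to the filter at 0.654 and 0.496 CPM in dKO and 0.492 and 0.989 CPM in tKO, so that the groups overlapped (log2 fold change 0.26, SE 0.45). The highest library thus differed among the H1 genes and was tKO 1 for H1-2, tKO 2 for H1-4 and dKO 2 for H1-10.

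Among the H2A genes, which encode the histone that BAP1 acts on, H2AC6 (ENSG00000180573.8, chromosome 6, 26124373 to 26139344, plus strand) had, like H1-2, its highest value in tKO 1. Its levels were 2.13 and 1.98 CPM in dKO and 4.80 and 2.41 CPM in tKO, from 39, 36, 78 and 39 counts. The log2 fold change was 0.70 (SE 0.37, 95% interval -0.19 to 1.59, limma unadjusted p = 0.104, limma adjusted p = 0.996). A release 44 gene without a symbol overlaps H2AC6 on the same strand, and the reads of the pair may not be separable. H2AC11 had 3.54 and 2.87 CPM in dKO and 2.71 and 3.65 CPM in tKO, with overlapping groups and a log2 fold change of -0.02 (SE 0.29). H2AC25, in the small chromosome 1 block, had 1.36 and 1.05 CPM in dKO and 1.23 and 2.10 CPM in tKO. Here tKO 2 was highest and tKO 1 lay within the dKO range (log2 fold change 0.40, SE 0.38).

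Without tKO 2, 2 members passed the threshold, H1-2 with a log2 fold change of 1.48 (SE 0.31, limma adjusted p = 0.000160) and H2AC6 with 1.18 (SE 0.35, limma adjusted p = 0.0340), among 1.17% of all genes called. This fit compares tKO 1 alone with the dKO libraries and assumes that a lone tKO library varies like the dKO pair. Without tKO 1 the estimates were 0.33 and 0.22 and no member passed, against 3.21% of all genes called. The libraries tKO 1 and tKO 2 were more than 1 log2 unit apart for 1 of 14 members, H1-2, and for 6.04% of all genes. tKO 1 was the highest library for 4 members (H1-2, H2AC6, H2BC21 and H2BC4), against 26.3% of all genes, and tKO 2 for 6 members, against 31.2%.

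The H2B genes held the largest number of tested members. H2BC12 (ENSG00000197903.6, chromosome 6, 27114140 to 27114634, minus strand) had 13.0 and 12.6 CPM in dKO and 14.2 and 15.8 CPM in tKO, from 238, 228, 231 and 256 counts. Both tKO values were above both dKO values, and the interval of the difference included 0 (log2 fold change 0.23, SE 0.17, 95% interval -0.16 to 0.63, limma adjusted p = 0.996). H2BC21, in the larger chromosome 1 block, had 1.80 and 1.98 CPM in dKO and 3.39 and 2.04 CPM in tKO, again with tKO 1 highest (log2 fold change 0.45, SE 0.34). H2BC15 had 2.23 and 2.37 CPM in dKO and 1.48 and 2.04 CPM in tKO, the lowest estimate among the members (log2 fold change -0.38, SE 0.31). The remaining H2B genes, H2BC11, H2BC5 and H2BC4, are given for completeness and were added once their values had been seen. Their levels were 0.495 to 2.20 CPM and their log2 fold changes -0.04, 0.28 and 0.06. H2BC11 also differed between the dKO libraries, at 0.981 and 2.20 CPM.

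The 2 tested H4 genes went in different directions without passing the test. H4C8 (ENSG00000158406.2, chromosome 6, 26277837 to 26285866, minus strand) had 0.763 and 0.992 CPM in dKO and 1.35 and 1.55 CPM in tKO, from 14, 18, 22 and 25 counts. Both tKO libraries were above both dKO libraries and close to each other (log2 fold change 0.66, SE 0.34, 95% interval -0.15 to 1.48, limma unadjusted p = 0.0959, limma adjusted p = 0.996). H4C16, a gene on chromosome 12 away from the clusters, had 1.36 and 1.10 CPM in dKO and 1.11 and 0.866 CPM in tKO, and the groups overlapped (log2 fold change -0.29, SE 0.35). H4C3 was not tested, with 2, 4, 6 and 3 counts in dKO 1, dKO 2, tKO 1 and tKO 2.

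The 3 H3 genes with any counts stayed below the filter. H3C12 had 1 and 1 counts in dKO and 2 and 7 in tKO, H3C4 had 2 and 1 in dKO and 5 and 2 in tKO, and H3C13 had 0 and 0 in dKO and 2 and 3 in tKO. Summed over the class, 5 counts in dKO stood against 21 in tKO, a ratio of 4.73 after scaling to library size, with an exact 95% interval of 1.74 to 16 that covers counting error only and not the spread between cultures. The dKO libraries lay at or below 3 counts each, and the higher counts in tKO 2 came mostly from H3C12. H3C12 shares its strand and position with H2AC17 in release 44, and H3C4 with a gene without a symbol. H3C14 and H3C15 had 0 counts in every library.

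Reads that fit several loci equally well were not counted, which bears on genes with near-identical copies. The exons of each member were searched on GRCh37 for 100-base windows, the read length stated for the study, that occur exactly elsewhere in the genome. The methods of the study state paired reads for libraries outside its retinoic acid experiment. The search took each window alone and did not consider whether the mate of a read lies in unique sequence. More than 50% of the windows were copied in 6 members (H2AC13, H2BC18, H3C13, H3C14, H3C15 and H4C11), of which 0 were tested and 4 had 0 counts. In H3C14 and H3C15 the share was 100%. For these 6 genes, reads left out for this reason and low expression cannot be told apart. Of the 26 members with no copied window, 11 were tested and 8 had 0 counts. H2BC12, with 22.5% of its windows copied, may be undercounted.

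The annotated 3′ end was also set beside the level, a description chosen after the values had been seen. In 21 members the release 44 gene model ends 3 to 6 bases after the stem-loop, and 4 of the 21 were tested (H1-2, H1-4, H2AC11 and H2BC12). The median level of all 21, tested or not, was 0.0445 CPM. In 12 members the gene model ends 1729 to 37155 bases past the stem-loop on the genome, introns included, and 9 of these were tested. H2BC4, with the longest such distance, has 2881 exon bases in all. The median level of all 12, tested or not, was 1.29 CPM. Gene models with more exon bases collect more reads at an equal level per length. The counts were made on release 19 models, whose ends were not examined. Of the genes with more than 50% of windows copied, H2AC13, H3C13, H3C14, H3C15 and H4C11 belong to the first group and H2BC18 to the second. Reads left out as copies may thus also differ between the groups. The 5 tested members with a mean between 1 and 2 CPM, H4C8, H4C16, H2BC5, H2BC11 and H2AC25, all belonged to the second group. The 3 tested cluster genes with the highest level per kilobase, H2BC12, H2AC11 and H1-2, belonged to the first, so counted reads were not limited to genes with a longer annotated end.

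**Figure D3:**
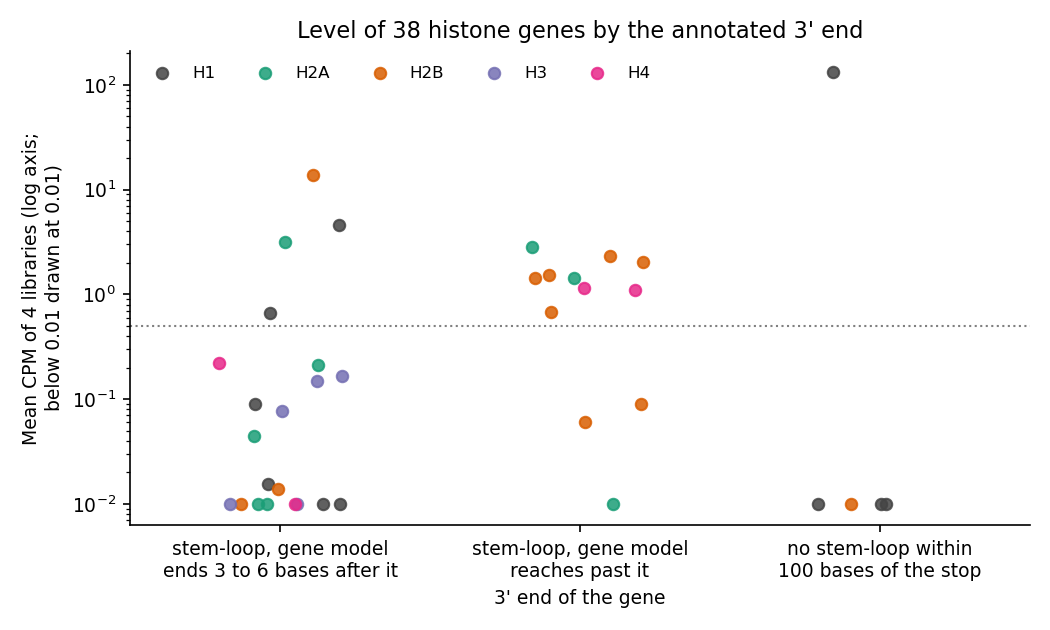
Mean CPM of the 4 libraries (log axis, lowest values drawn at the bottom) for the 38 histone genes by their 3′ end in release 44, coloured by class, with the filter of 0.5 CPM as a dotted line. Of the 12 genes annotated past the stem-loop 9 were tested, of the 21 ending at it 4, and of the 5 without it H1-10 alone.

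Summed over all 38 genes, the level was 165 and 179 CPM in dKO and 176 and 160 CPM in tKO. The ratio of tKO to dKO was 0.977, and the groups overlapped (exact two-sided permutation p = 0.667). Because H1-10 made up most of this sum, it was also left out, a choice made after its level had been seen. The other 37 genes then summed to 32.8 and 33.6 CPM in dKO and 45.1 and 40.3 CPM in tKO, a ratio of 1.29. The groups no longer overlapped (exact two-sided permutation p = 0.33, the smallest that 2 against 2 libraries allow, so no sum in this design can reach 0.05). Bulk RNA cannot tell a changed share of cells in S phase from a changed amount of RNA per cell.

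By class, the H2A sum was 7.14 and 6.01 CPM in dKO and 9.29 and 8.41 CPM in tKO, a ratio of 1.35. The H2B sum was 20 and 21.2 CPM in dKO and 23.2 and 23.7 CPM in tKO, a ratio of 1.14, and the H4 sum was 2.23 and 2.31 CPM in dKO and 2.83 and 2.60 CPM in tKO, a ratio of 1.19. In these 3 classes both tKO libraries lay above both dKO libraries (exact two-sided permutation p = 0.33 each). Of the tested H2A genes, only H2AC6 was above both dKO libraries in tKO 1, at 4.80 CPM against 2.13 and 1.98 CPM. In that library H2AC11 lay below both dKO libraries and H2AC25 between them, so its H2A sum followed H2AC6. In tKO 2 all tested H2A genes lay above both dKO libraries. The H1 sum followed H1-10, at 136 and 149 CPM in dKO and 140 and 125 CPM in tKO, a ratio of 0.930. The other H1 genes summed to 3.33 and 3.91 CPM in dKO and 9.17 and 4.88 CPM in tKO, most of it H1-2.

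**Figure D4:**
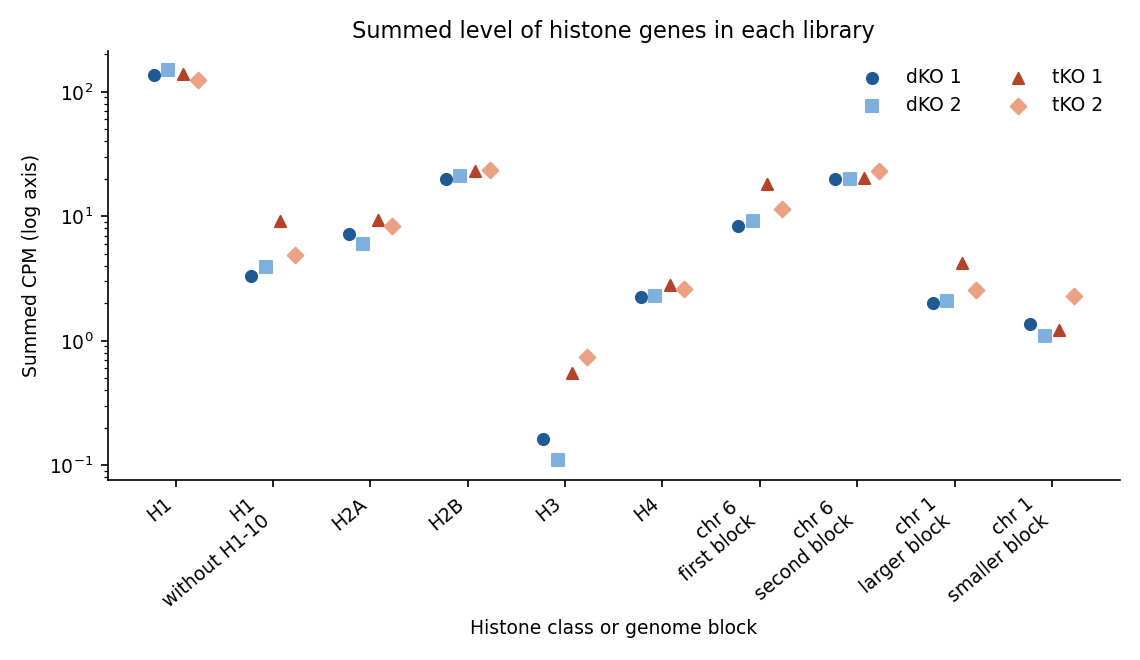
Summed CPM (log axis) of the histone genes by class and by genome block in the 4 libraries, 1 point a library. The tKO libraries lie above the dKO libraries for H2A, H2B, H3 and H4 and for H1 without H1-10, and tKO 1 lies far above tKO 2 in the first chromosome 6 block, at 18.3 against 11.4 CPM.

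The library with the highest sum differed between genome blocks. The first chromosome 6 block (25723625 to 26285866), with 14 of its 30 genes in the files, summed to 8.29 and 9.15 CPM in dKO and 18.3 and 11.4 CPM in tKO. The second (27093676 to 27861669), with 9 of 21 genes, summed to 19.8 and 20.1 CPM in dKO and 20.2 and 23.2 CPM in tKO. It was tKO 1 in the first block, which holds H1-2 and H2AC6, and tKO 2 in the second, which holds H2BC12. The larger chromosome 1 block (149754245 to 149859515) followed H2BC21, at 2.02 and 2.09 CPM in dKO and 4.25 and 2.54 CPM in tKO. Over the 48 tested genes of a mean log2-CPM above 1 in the chromosome 6 window of 20 to 30 Mb, the median difference from dKO was 0.05 in tKO 1 and 0.00 in tKO 2.

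A further 3 lists were described beside the members. Variant histones are for the most part replication-independent and expressed from polyadenylated mRNAs. Of the 14 found 9 were tested, with 0 called and log2 fold changes of -0.36 to 0.15 (median 0.08). The most abundant were H2AZ1, at 624 and 606 CPM in dKO and 718 and 590 CPM in tKO, and MACROH2A1, at 404 and 380 CPM in dKO and 425 and 413 CPM in tKO. All 28 genes listed as factors of histone transcription and mRNA processing were tested and 0 were called. Their log2 fold changes were -0.22 to 0.24 (median 0.06). The list was not limited to genes particular to histone mRNAs and also held PAPOLA, FIP1L1, CPSF1 and MIDEAS. Of the 28 genes SRRT and NCBP2, which act with the cap-binding complex, were the most abundant, with log2 fold changes of 0.04 and 0.11. All 19 S phase genes found were tested and 0 were called, with log2 fold changes of -0.12 to 0.25 (median -0.03). MKI67 and MCM7 were the most abundant of this list, with log2 fold changes of 0.05 and -0.05. MKI67 is not particular to S phase, and SLBP was counted both here and among the histone mRNA factors. In tKO 1 alone, where H1-2 and H2AC6 were highest, the S phase genes had a median difference from dKO of -0.01 and the histone mRNA factors one of 0.08.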

How the data were processed

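RNA-seq was analysed in 2 dKO and 2 tKO libraries. The authors trimmed reads with cutadapt 1.12 through Trim Galore 0.4.4, removed ribosomal reads with bowtie 1.2 and mapped the rest to GRCh37 with STAR 2.5.2b. The deposited values were raw counts of uniquely mapped reads per GENCODE release 19 gene, and the reverse-strand column was used. Rows naming no gene (27.3% to 28.7% of reads) were left out. Groups followed the genotype labels. Counts were turned into TMM log2-CPM with a prior count of 2 in edgeR (4.0.16), and limma (3.58.1) in R (4.3.3) fitted genotype as the only term, with a trend of the variance on the mean level. Benjamini-Hochberg adjustment ran over every gene above the filter. Alternatives were DESeq2 (1.42.0), the quasi-likelihood test of edgeR, limma-voom, RLE factors, library totals, other filters, unstranded counts, a prior count of 0.25, a replicate block and leaving out each library. The fit was tested on simulated data, with changes planted only in genes above 5 CPM and larger than any member estimate. Among the tested members only H1-10 and H2BC12 have a mean above 5 CPM, so the simulation does not cover the others. Symbols and positions came from GENCODE release 44 on GRCh37, sequences from that genome, and copied windows from blastn (2.17.0). The members and lists were chosen with earlier results of these data known.

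Genes were named by rule: all tested H1 genes, the 3 most abundant genes of each other class, any gene with an unadjusted p below 0.05 or past a log2 fold change of 1, and the 2 most abundant genes of each comparison list. Results for 1 item are not reported here.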

Additional observations from a re-analysis of the deposited data

How the results depend on the processing

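The number of members past the threshold was 0 under every alternative that kept all libraries. Fits that left 1 library in a group are described by their log2 fold changes alone. Members with a log2 fold change beyond 1 numbered 0, but 1 with the edgeR quasi-likelihood test, 1 with DESeq2, 3 with no filter and 0 to 2 without each library. The median log2 fold change of 0.24 was 0.28 with edgeR and with DESeq2, 0.26 with limma-voom and with a prior count of 0.25, 0.39 with no filter, 0.04 with CPM above 5, 0.21 with unstranded counts, and 0.12 to 0.29 without each library. The filter kept 14 members, against 25 with none and 2 with CPM above 5. Without H1-10, an alternative chosen after seeing the data, the summed ratio was 1.29 for all members and 1.94 for H1. The H3 ratio was 3.54 with unstranded counts and 3.96 to 5.88 without each library, and the H2A ratio 1.24 to 1.47. Sign changes came only from left-out libraries, in H1-4 (-0.18 to 0.69), H2AC11 (-0.23 to 0.19), H2BC11 (-0.58 to 0.50) and H2BC4 (-0.33 to 0.44). Of 184 alternatives for single genes 175 kept direction and side of the threshold. Same-numbered libraries had a correlation of deviations of 0.0581, so the numbers were not taken as pairing them. With the replicate block 0 members were called, H1-2 had a limma unadjusted p of 0.0354, the median was 0.24, and the genes called among all tested rose from 2 to 13. Where no other cause is given, the cause was not tested. Low counts limit all members but H1-10 and H2BC12.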
